A study of Mus musculus with 6 samples.

Results

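The DNA replication and mitosis genes described here are 52 mouse genes, taken by symbol from the Ensembl gene identifiers of the count tables, and all 52 were found among 49315 genes. They comprise 18 S-phase members (replication licensing, nucleotide supply, copying of DNA and chromatin, and the E2F factors that switch these genes), 7 cyclins and kinases of G1, and 27 mitotic members. RNA of the gastrocnemius, the large calf muscle, was sequenced from mice of a mixed C57BL/6 and 129 background at 3 months of age. There were 3 libraries from mice with a muscle-specific knockout of Hnrnpu (mKO) and 3 from WT mice. The sources used here do not say which promoter drives the deletion, which alleles the WT mice carry or what sex the mice had. They do not tie libraries to animals either, so p-values reflect spread among libraries that may be technical. Hnrnpu encodes a nuclear RNA-binding protein with roles in chromatin organisation and splicing, and the series asks how it regulates expression and splicing in skeletal muscle.

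Cells that divide copy their genome in S phase and share it out in mitosis, and the genes for each task are switched on in turn. In G1, D-type cyclins with Cdk4 start to inactivate the retinoblastoma protein, and E-type cyclins with Cdk2 complete this, which frees E2F factors to turn on the S-phase genes. The mitotic genes follow later under the MuvB complex with B-Myb and FoxM1, which acts through a promoter element known as the cell cycle genes homology region (CHR), while in resting cells the DREAM complex keeps both sets low. Muscle fibres do not divide, and in adult muscle dividing cells are found mainly among satellite cells, which are the stem cells of the fibres, and among immune, vascular and connective tissue cells.

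Library totals were 32108684 to 38095211 counts in mKO and 34871043 to 42344238 in WT. Levels are given in CPM, the count scaled to a common library size, after correction by TMM, a factor that sets the bulk of genes equal between libraries. Of 16650 genes tested with edgeR, 18.2% were higher and 18.9% lower in mKO at an adjusted p of 0.05. TMM gave 3022 genes higher and 3144 lower, 37.0% of genes in all. Scaling by plain library totals shifted the median gene upward by 0.47 (log2). It gave 8159 higher (49.0%) and 1124 lower (6.75%), so the changes below are relative to the bulk of genes. In either direction the share of genes called was 29.3% with DESeq2, 37.3% with limma-voom, 55.8% with library totals, 37.0% with RLE factors and 37.2% with upper quartile factors. It was 37.4% with a robust fit, 22.7% without a filter on low counts, 42.2% with a stricter filter and 33.1% with replicate numbers as a block (16.9% lower). Without mKO replicates 1, 2 and 3 in turn it was 30.3%, 30.3% and 27.9%, and without WT replicates 1, 2 and 3 it was 31.9%, 36.2% and 29.3%. Hnrnpu itself had 208 ± 2.92 CPM in mKO and 239 ± 7.59 CPM in WT (SD, n = 3 each; log2 -0.20, SE 0.10, adjusted p = 0.147). With plain totals its mean was above WT, at 244 against 203 CPM. A count over all exons does not check a deletion of some of them, so directions are those of the libraries as labelled.

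In mKO muscle 21 of 27 mitotic genes rose, 11 of 18 S-phase genes did, and the G1 genes were mixed. Of the 52 members, 35 were called higher and 4 lower, against a background of 18.2% higher and 18.9% lower over all genes tested. All 21 mitotic members called higher were so by at least 2-fold (background 8.77%), 1 was called lower and 5 were not called. Of the 11 S-phase members called higher, 7 were so by at least 2-fold, while 2 were called lower and 5 not called. The 7 G1 members split into 3 higher, 1 lower and 3 not called.

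The median log2 fold change was 2.29 for mitotic, 0.92 for S-phase and 0.34 for G1 members, beside 0.02 for all genes tested. These medians include members that needed mKO libraries to pass the filter on low counts. With only the members whose WT libraries all passed it, the medians were 1.35 for 12 mitotic and 0.56 for 11 S-phase members, a gap of 0.79 in place of 1.37, and 0.25 for 6 G1 members. Taken library by library against the WT mean, with 0.1 CPM added to each value, the mitotic median stood above the S-phase median by 1.06, 1.10 and 0.84 on the log2 scale in mKO replicates 1 to 3. This difference is given with no test. Within the S-phase class the median of the fit was 0.51 for the helicase subunits Mcm2 to Mcm7 and 1.59 for the other 12 members. Of these 12, 7 needed mKO libraries to pass the filter. The mKO and WT libraries did not overlap for 41 members with mKO above (background 25.3%) and 4 with mKO below (background 24%). Among the 29 members whose WT libraries all passed the filter, mKO was above in 19 and below in 4. The share over all genes of that kind was not counted, and the backgrounds above are over all genes tested. Library-total scaling gave 16 higher and 0 lower S-phase members, 24 and 1 mitotic members, and 6 and 1 G1 members (background 49.0% higher and 6.75% lower).

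**Figure D1:**
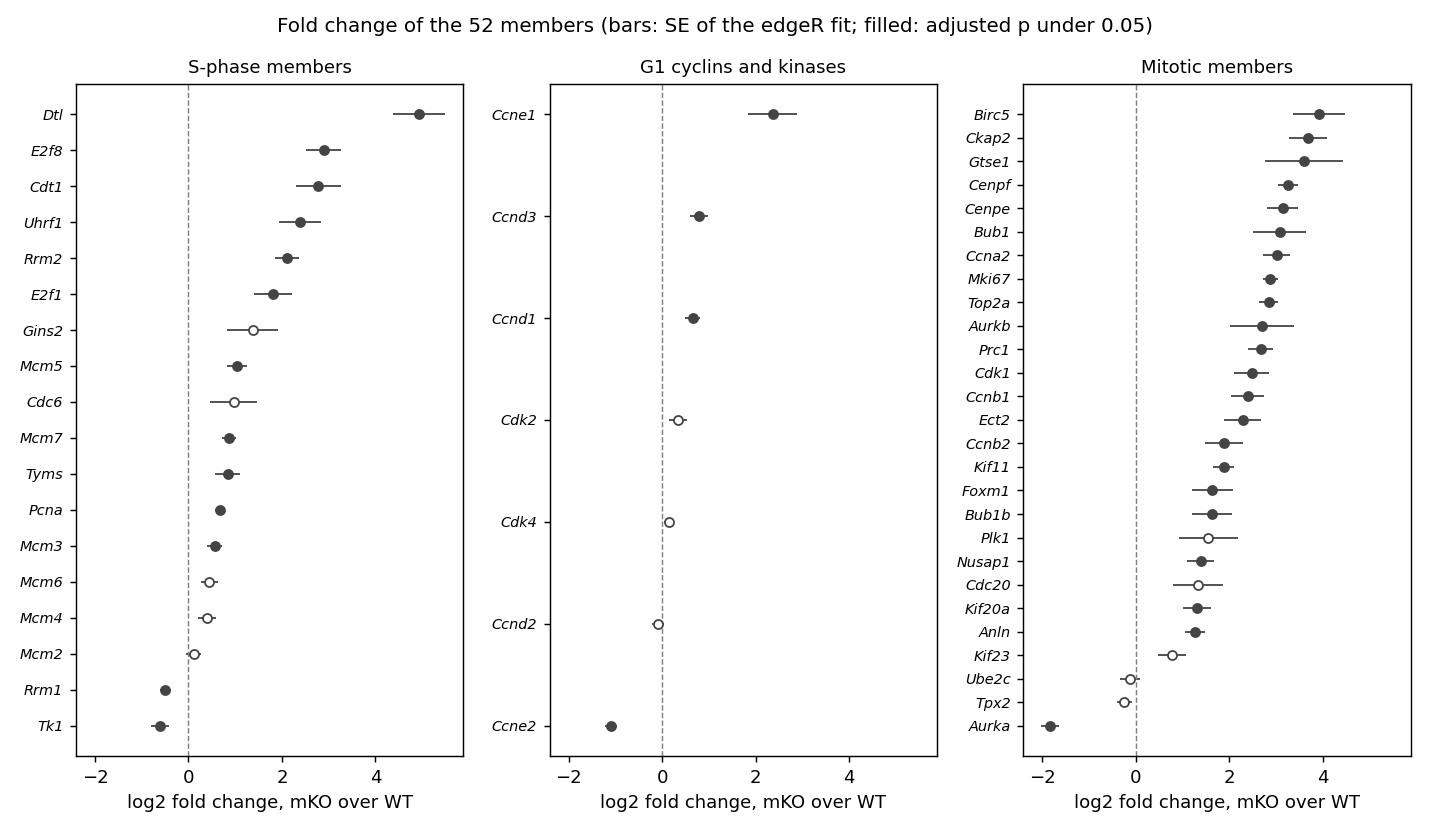
Log2 fold change of each member, mKO over WT, in panels for S-phase, G1 and mitotic members; bars are the SE of the edgeR fit and filled points passed an adjusted p of 0.05. The 21 mitotic members called higher lie between 1.26 (Anln) and 3.91 (Birc5), with Aurka apart at -1.84, while the S-phase members range from -0.62 (Tk1) to 4.93 (Dtl).

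Many members were close to the limit of detection in WT muscle. The filter on low counts asked for about 10 counts in 3 libraries, which is 0.263 CPM of unscaled counts, and all 52 members passed it. In 23 of them not every WT library reached this level, and in 12 none did, so these entered the test through the mKO libraries and a difference was built into their selection. Of the 27 mitotic members 15 were of this kind, and of the 18 S-phase members 7. No WT library passed for Cdt1, Dtl, Gins2, E2f8, Ccne1, Foxm1, Bub1, Aurkb, Plk1, Birc5, Ckap2 and Gtse1. Some but not all passed for Cdc6, Uhrf1, E2f1, Ccna2, Ccnb1, Ccnb2, Cdk1, Bub1b, Cdc20, Cenpe and Ect2. Of the 29 members with all WT libraries past the filter, 16 were called higher and 4 lower, against 16.5% higher and 21.7% lower of the 14516 genes of that kind, whose median log2 change was -0.03. They comprise 12 mitotic members with 8 higher and 1 lower, 11 S-phase members with 6 higher and 2 lower, and 6 G1 members with 2 higher and 1 lower.

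The 27 mitotic members together took 105, 87.5 and 88.6 CPM in mKO replicates 1 to 3, against 32.7, 32.5 and 34.6 CPM in WT replicates 1 to 3. All mKO values lay above all WT values, and the mean was 2.81 times that of WT. The 18 S-phase members took 149, 141 and 144 CPM in mKO, against 128, 120.0 and 126 CPM in WT, a ratio of 1.16, again without overlap. The 7 G1 members overlapped between the groups, with 75.4, 78.9 and 82.4 CPM in mKO and 74.1, 80.3 and 80.5 CPM in WT. In each library the mitotic sum divided by the S-phase sum was 0.704, 0.622 and 0.616 in mKO, against 0.255, 0.271 and 0.275 in WT. These sums weigh each gene by its count, and they are given with no test. They include members that needed mKO libraries to pass the filter on low counts. With only the members whose WT libraries all passed it, mKO sums averaged 2.40 times WT for 12 mitotic members. For 11 S-phase members of that kind the ratio was 1.10. Rrm1 and Pcna carried most of the S-phase sum in both groups, and the largest parts of the mitotic sum were Mki67 and Top2a in mKO and Aurka and Tpx2 in WT.

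**Figure D2:**
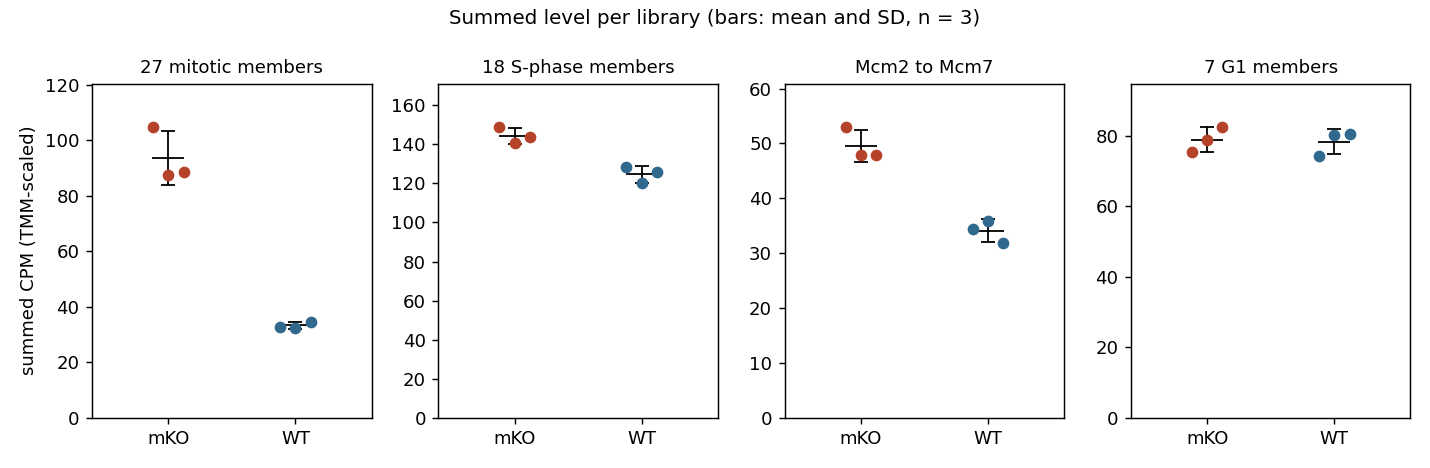
Summed TMM-scaled CPM per library (points) with mean and SD of 3 libraries, mKO left and WT right, for mitotic members, S-phase members, the subunits Mcm2 to Mcm7 alone and G1 members. The mean mitotic sum in mKO is 2.81 times that in WT, that of Mcm2 to Mcm7 1.46 times, and the G1 sums overlap. Without members that needed mKO libraries to pass the filter on low counts, the mitotic ratio is 2.40.

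Markers of several other cell types were counted as well, beside a background of 18.2% higher and 18.9% lower over all genes tested. All 12 macrophage markers were higher in mKO, and their sum was 613 to 1000.3 CPM in mKO and 277 to 337 CPM in WT, with Cd68, a lysosomal protein of macrophages, at 2.62 on the log2 scale. Of 5 markers of myoblasts and fusing cells 4 rose and none fell (sum 46.7 to 66.8 CPM in mKO and 19.4 to 21.3 CPM in WT), with the lowest p for the muscle transcription factor gene Myog (log2 2.36, adjusted p = 7.17e-06). Mymk and Mymx, which encode proteins needed for myoblast fusion, had 359 and 127 counts over the mKO libraries, against 3 and 1 over the WT libraries. Of 8 satellite cell markers 2 rose and 2 fell, close to the background (sum 179 to 191 CPM in mKO and 144 to 164 CPM in WT). Itga7, an integrin, and Pax7, the transcription factor that defines these cells, rose (log2 0.62, adjusted p = 0.00198 and log2 0.91, adjusted p = 0.0396). Spry1 and Calcr, both linked to satellite cell quiescence, fell (log2 -0.64, adjusted p = 0.00389 and log2 -1.39, adjusted p = 0.0213).

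Of 8 fibro-adipogenic markers 3 rose and none fell, beside the same background (18.2% higher and 18.9% lower). Their sum was 2176 to 2469 CPM in mKO and 1729.6 to 1894 CPM in WT. Endothelial markers fell in 7 of 8 (sum 166 to 179 CPM in mKO and 252 to 332 CPM in WT), pericyte and smooth muscle markers in 3 of 6 with 1 higher (sum 356 to 387 CPM in mKO and 667 to 732 CPM in WT), and myofibre markers in 7 of 8 (sum 173383 to 206790.3 CPM in mKO and 282003 to 295345 CPM in WT). Of 5 erythroid markers 2 fell (sum 3.35 to 6.61 CPM in mKO and 14.3 to 18.2 CPM in WT), and of 5 Schwann cell markers none was called (sum 9.61 to 40.7 CPM in mKO and 20.4 to 29.7 CPM in WT). Lymphocyte and neutrophil markers were near 0: the T cell list summed to 0.539 to 0.729 CPM in mKO and 0.140 to 0.367 CPM in WT, with Cd4, which macrophages can also express, the only one tested and higher, and Cd8a at 0 in WT. The B cell list summed to 0.108 to 0.573 CPM in mKO and 0.200 to 1.26 CPM in WT and the neutrophil list to 0.606 to 1.30 CPM in mKO and 0.399 to 1.20 CPM in WT, with Ly6g at 0 in all libraries. Within mKO, replicate 1 had the highest mitotic sum and the highest sums of macrophage (1000.3, 613 and 747 CPM in replicates 1 to 3) and myoblast markers (66.8, 48.6 and 46.7 CPM). Of the 27 mitotic members 18 were highest in mKO replicate 1, against 6 of the 18 S-phase members. In bulk tissue more cells of a type and more RNA per cell cannot be told apart, and the part of these cell types in the results on the members was not tested.

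RefSeq promoter windows of the GRCm38.p6 build, from 250 bases before to 50 bases after a gene's start, were held for 42 members, among them 22 mitotic and 16 S-phase members; Aurkb, Ccna2, Ccnd1, Ccnd2, Ccne2, Foxm1, Gins2, Kif20a, Mcm4 and Tpx2 were without one. Both strands were searched for E2F elements (TTTCCCGC, TTTCGCGC, TTTGCCGC or TTTGGCGC), for CHR elements (TTTGAA or TTTAAA) and for the CCAAT box bound by NF-Y. A CHR match was found for 20 of 22 mitotic members and 6 of 16 S-phase members, against 30.6% of all 27025 genes with a window. An E2F match was found for 1 of 22 mitotic members (Cdk1) and 8 of 16 S-phase members, against 2.60% of all genes. A CCAAT box was found for 19 of 22 and 11 of 16, against 41.1% of all genes. In 1 place among the member windows 2 matches of different elements overlapped.

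**Figure D3:**
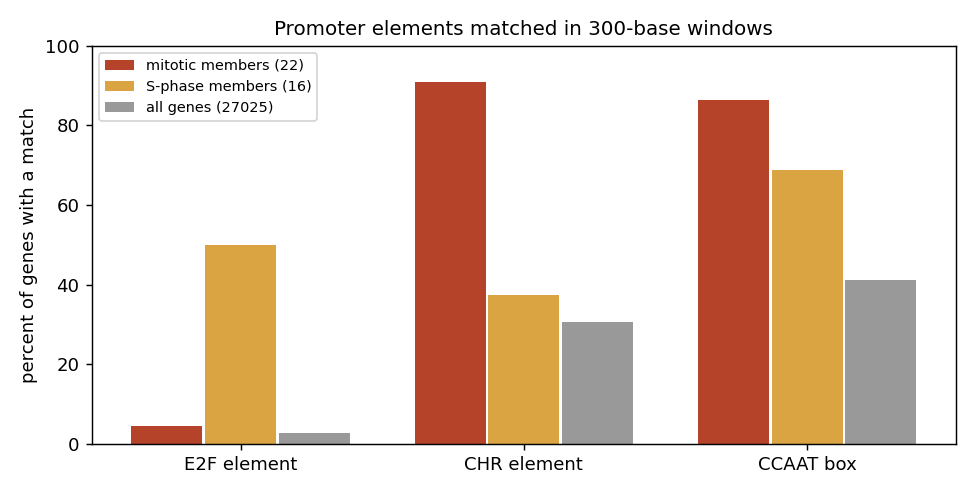
Percent of genes with at least 1 match to an E2F element, a CHR element or a CCAAT box in a 300-base promoter window, for mitotic members (22 genes), S-phase members (16) and all genes with a window (27025). CHR matches reach 90.9% of mitotic members and E2F matches 50% of S-phase members.

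The windows of 7 members are shown because they pair a like or unlike set of elements with a like or unlike change. Cenpf (chr1:189688037-189688336) and Cdk1 (chr10:69352863-69353162) are mitotic members that rose, and Aurka (chr2:172370521-172370820) is the one that fell and holds CHR and CCAAT matches as well. Dtl (chr1:191575495-191575794) rose most of all members with 1 E2F match, while Mcm6 (chr1:128359656-128359955) was not called with 3. Rrm2 (chr12:24708004-24708303), which rose, holds a CHR match, and Rrm1 (chr7:102441445-102441744), which fell, holds CCAAT boxes only. Rrm1 and Rrm2 lie on the plus strand and the other 5 on the minus strand. Each window is written from its 5′ to its 3′ end on the gene's strand, with matches to any of the 3 elements in capitals. The longest run of capitals in Mcm6 holds 2 overlapping E2F matches, read on opposite strands.
Cenpf: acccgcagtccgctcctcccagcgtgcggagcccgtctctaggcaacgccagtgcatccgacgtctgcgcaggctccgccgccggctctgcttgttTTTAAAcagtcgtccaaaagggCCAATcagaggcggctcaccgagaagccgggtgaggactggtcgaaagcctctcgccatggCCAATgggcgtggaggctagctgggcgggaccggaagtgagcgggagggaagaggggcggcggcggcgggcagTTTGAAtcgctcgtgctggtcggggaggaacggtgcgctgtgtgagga
Cdk1: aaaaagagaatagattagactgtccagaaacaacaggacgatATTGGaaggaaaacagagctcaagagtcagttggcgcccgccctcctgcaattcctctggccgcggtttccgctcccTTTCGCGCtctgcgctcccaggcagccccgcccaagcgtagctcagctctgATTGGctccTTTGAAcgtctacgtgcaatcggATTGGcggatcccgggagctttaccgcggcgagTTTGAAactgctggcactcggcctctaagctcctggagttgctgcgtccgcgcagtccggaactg
Dtl: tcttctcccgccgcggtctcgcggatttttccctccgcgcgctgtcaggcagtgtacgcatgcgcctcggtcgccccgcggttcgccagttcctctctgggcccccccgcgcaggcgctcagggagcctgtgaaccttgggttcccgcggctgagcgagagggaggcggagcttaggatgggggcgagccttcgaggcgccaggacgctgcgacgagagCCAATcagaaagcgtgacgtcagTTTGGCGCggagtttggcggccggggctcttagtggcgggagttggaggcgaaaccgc
Mcm6: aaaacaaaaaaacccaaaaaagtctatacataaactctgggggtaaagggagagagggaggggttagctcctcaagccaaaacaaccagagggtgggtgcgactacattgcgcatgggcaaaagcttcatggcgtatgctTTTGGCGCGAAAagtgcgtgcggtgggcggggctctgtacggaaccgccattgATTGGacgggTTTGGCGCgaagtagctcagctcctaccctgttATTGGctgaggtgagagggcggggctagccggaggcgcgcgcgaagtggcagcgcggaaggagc
Rrm2: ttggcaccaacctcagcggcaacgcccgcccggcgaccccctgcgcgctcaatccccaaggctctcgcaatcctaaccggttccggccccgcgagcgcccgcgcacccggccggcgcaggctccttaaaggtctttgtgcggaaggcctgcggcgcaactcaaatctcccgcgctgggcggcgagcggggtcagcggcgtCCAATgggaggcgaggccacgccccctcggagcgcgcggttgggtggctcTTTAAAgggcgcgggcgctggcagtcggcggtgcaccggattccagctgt
Rrm1: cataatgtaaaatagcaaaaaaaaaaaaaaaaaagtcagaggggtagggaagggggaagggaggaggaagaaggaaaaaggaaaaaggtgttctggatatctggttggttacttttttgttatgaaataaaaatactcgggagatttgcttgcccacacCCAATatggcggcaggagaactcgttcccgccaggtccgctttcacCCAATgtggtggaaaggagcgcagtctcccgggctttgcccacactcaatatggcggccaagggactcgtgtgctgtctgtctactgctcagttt
Aurka: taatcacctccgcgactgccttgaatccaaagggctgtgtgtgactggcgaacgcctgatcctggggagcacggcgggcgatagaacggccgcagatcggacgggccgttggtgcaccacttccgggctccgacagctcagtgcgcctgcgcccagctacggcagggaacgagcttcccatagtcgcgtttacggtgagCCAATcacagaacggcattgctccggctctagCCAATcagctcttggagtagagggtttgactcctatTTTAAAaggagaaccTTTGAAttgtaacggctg

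A match is a description of these letters and not evidence of binding. A CHR match was found for 66.7% of 30 members that rose and 55.6% of 9 that were not called. For a CCAAT box the shares were 76.7% and 77.8%. Of the mitotic members that were not called, Plk1, Cdc20, Kif23 and Ube2c all hold a CHR match, and all but Ube2c had a positive change. The part of these elements in the changes was not tested.

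Among the licensing genes, Dtl and Cdt1 rose with larger fold changes than any helicase subunit, a difference that was not tested. Dtl and Cdt1 had no WT library past the filter on low counts, so a difference was built into their selection. Mcm2 to Mcm7 each had every WT library past it. The subunits Mcm2 to Mcm7 form the ring that unwinds DNA. Among all genes with every WT library past the filter 16.5% were higher and 21.7% lower. Of the 6 subunits 3 were called higher and none lower, with a median log2 change of 0.51. Their sum was 53.0, 47.8 and 47.9 CPM in mKO, against 34.5, 35.9 and 31.8 CPM in WT, without overlap. Mcm7 had 16.7, 14.5 and 13.3 CPM in mKO, against 9.12, 8.12 and 7.19 CPM in WT (log2 0.87, SE 0.15, adjusted p = 5.66e-04), and Mcm5 4.03, 4.11 and 3.75 CPM in mKO, against 1.503, 2.24 and 2.01 CPM in WT (log2 1.04, SE 0.21, adjusted p = 0.00210). Both were higher in every mKO library than in any WT library. Mcm3 had 6.83, 6.08 and 6.42 CPM in mKO, against 3.91, 4.97 and 4.22 CPM in WT (log2 0.56, SE 0.17, adjusted p = 0.0189), a call that was lost without mKO replicate 1 or 3 or WT replicate 1 or 3 (adjusted p = 0.0674, 0.0560, 0.0667 and 0.0593; 2.99e-04 to 0.0674 over 15 alternatives). Mcm2, Mcm4 and Mcm6 overlapped between groups and were not called, at 0.11 (SE 0.16), 0.41 (SE 0.19) and 0.45 (SE 0.18) on the log2 scale. Mcm4 passed without WT replicate 2 (adjusted p = 0.0220; 0.00259 to 0.376 over the alternatives) and Mcm6 without mKO replicate 2, with upper quartile factors and with the stricter filter (adjusted p = 0.0348, 0.0372 and 0.0488; 0.00104 to 0.240). With library totals all 6 subunits were called higher, as were 49.0% of all genes tested. Per kilobase of exon the mean levels were 3.35 against 1.84 CPM for Mcm7, 2.13 against 1.61 for Mcm4, 1.74 against 1.27 for Mcm6, 1.72 against 1.16 for Mcm3, 1.23 against 1.13 for Mcm2 and 0.993 against 0.480 for Mcm5, each mKO against WT.

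Cdt1 loads the helicase together with Cdc6, and Dtl is the substrate receptor of the ubiquitin ligase that destroys Cdt1 once replication starts. Dtl (chromosome 1, 191537356 to 191575544, minus strand) had 2.31, 1.41 and 3.08 CPM in mKO, against 0, 0.0920 and 0.112 CPM in WT, which rests on 282 counts over the mKO libraries and 7 over the WT libraries. All mKO libraries stood above all WT libraries, and the fitted change was the largest of the 52 members (30.6-fold, log2 4.93, SE 0.57, adjusted p = 3.29e-05). Cdt1 rose 6.87-fold, with 1.17, 0.965 and 1.32 CPM in mKO, against 0.301, 0.0920 and 0.112 CPM in WT (log2 2.78, SE 0.48, adjusted p = 6.94e-04). Cdc6 overlapped between groups, with 0.397, 0.921 and 0.756 CPM in mKO, against 0.501, 0.399 and 0.168 CPM in WT (log2 0.97, SE 0.50, adjusted p = 0.153). Gins2, a subunit of the active helicase, had 0.441, 0.314 and 0.864 CPM in mKO, against 0.267, 0.153 and 0.196 CPM in WT (log2 1.37, SE 0.54, adjusted p = 0.0633); it passed without mKO replicate 2 and with library totals (adjusted p = 0.0484 and 0.0114; 0.0114 to 0.310 over 14 alternatives). In all 67.3% of its exon length is shared with Gse1 on the other strand, so its counts are uncertain.

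The genes of nucleotide supply moved in opposite directions. Rrm2 and Rrm1 encode the small and large subunits of ribonucleotide reductase, which makes deoxyribonucleotides, and the small subunit is the one whose level limits the enzyme in dividing cells. Rrm2 had 4.56, 4.47 and 3.70 CPM in mKO, against 1.27, 1.04 and 0.671 CPM in WT, 4.29-fold higher (log2 2.10, SE 0.26, adjusted p = 5.34e-05). Rrm1 had 45.4, 40.6 and 44.1 CPM in mKO, against 63.0, 54.0 and 66.4 CPM in WT (log2 -0.50, SE 0.11, adjusted p = 0.00414), so the mKO libraries lay above WT for Rrm2 and below WT for Rrm1. Per kilobase of exon Rrm1 stood at 3.94 against 5.55 CPM and Rrm2 at 1.53 against 0.359, mKO against WT. Tyms, thymidylate synthase, rose with 1.98, 1.95 and 2.21 CPM in mKO, against 1.10, 0.858 and 1.45 CPM in WT (log2 0.84, SE 0.27, adjusted p = 0.0285), without overlap of the groups, but the call was lost in 5 of 6 fits that left out a library, namely without any mKO replicate and without WT replicate 1 or 2 (adjusted p = 0.0504 to 0.0901; 0.00150 to 0.0901 over 15 alternatives). Tk1, thymidine kinase, fell with 3.11, 3.91 and 3.81 CPM in mKO, against 4.78, 6.53 and 5.26 CPM in WT (log2 -0.62, SE 0.19, adjusted p = 0.0226), a call lost without mKO replicate 1 or 3 or WT replicate 2 (adjusted p = 0.0878, 0.0518 and 0.0780; 0.0175 to 0.512 over 15 alternatives). With library totals neither Rrm1 (-0.03 on the log2 scale, adjusted p = 0.839; 5.45e-04 to 0.839 over 15 alternatives) nor Tk1 (-0.15, adjusted p = 0.512) was called.

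Pcna, the sliding clamp of the DNA polymerases, was the most abundant member per kilobase in both groups (13.4 against 8.31 CPM per kilobase, mKO against WT). It had 32.4, 32.8 and 30.9 CPM in mKO, against 21.4, 19.7 and 18.8 CPM in WT and rose 1.61-fold (log2 0.68, SE 0.11, adjusted p = 3.45e-04). Uhrf1, which carries DNA methylation over to the new strand, rose 5.21-fold with 1.498, 2.09 and 1.97 CPM in mKO, against 0.668, 0.276 and 0.140 CPM in WT (log2 2.38, SE 0.45, adjusted p = 0.00125). Of the E2F factors, E2f1, an activator of S-phase genes, had 1.08, 1.82 and 1.94 CPM in mKO, against 0.267, 0.705 and 0.392 CPM in WT (3.51-fold, log2 1.81, SE 0.41, adjusted p = 0.00371). E2f8, an E2F repressor that is itself turned on in S phase, had 1.48, 1.59 and 1.30 CPM in mKO, against 0.167, 0.184 and 0.224 CPM in WT (7.45-fold, log2 2.90, SE 0.38, adjusted p = 8.68e-05). E2f8 shares 11.2% of its exon length with Gm2788, which had no WT counts. For Pcna, Uhrf1, E2f1 and E2f8 the lowest mKO library stood above the highest WT library.

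Among the G1 genes the D-type and E-type cyclins each split. Ccnd2 overlapped between groups, with 18.4, 23.6 and 22.4 CPM in mKO, against 20.4, 24.6 and 23.02 CPM in WT (log2 -0.08, SE 0.13, adjusted p = 0.669; 0.38 on the log2 scale with library totals and 0.02 without mKO replicate 1). Ccnd1 had 12.1, 13.4 and 15.5 CPM in mKO, against 6.78, 9.66 and 9.59 CPM in WT (1.57-fold, log2 0.65, SE 0.16, adjusted p = 0.00761), and Ccnd3 8.97, 7.97 and 9.10 CPM in mKO, against 3.97, 6.53 and 4.50 CPM in WT (1.73-fold, log2 0.79, SE 0.19, adjusted p = 0.00578), both without overlap. Per kilobase the 3 stood at 2.91 against 1.84 CPM for Ccnd1, 2.28 against 2.41 for Ccnd2 and 0.989 against 0.570 for Ccnd3, mKO against WT. Ccnd1 shares 23.4% of its exon length with LTO1.

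The E-type cyclins bind the same kinase, Cdk2, yet moved in opposite directions. Ccne1 (chromosome 7, 38097984 to 38107534, minus strand) had 0.639, 0.876 and 0.405 CPM in mKO, against 0.134, 0.123 and 0.112 CPM in WT (5.15-fold higher, log2 2.36, SE 0.52, adjusted p = 0.00338), on 83 counts over the mKO libraries and 12 over the WT libraries. Ccne2 (chromosome 4, 11191351 to 11204779, plus strand) fell, with 8.77, 8.53 and 10.02 CPM in mKO, against 19.9, 17.3 and 21.1 CPM in WT (2.14-fold lower, log2 -1.10, SE 0.13, adjusted p = 4.92e-05). Per kilobase Ccne2 stood at 2.61 against 5.56 CPM, number 3 of the 52 members in WT, and Ccne1 at 0.240 against 0.0461, mKO against WT. Ccne2 remained lower with library totals (-0.63 on the log2 scale, adjusted p = 0.00159; 2.00e-11 to 0.00159 over 15 alternatives). It shares 17.4% of its exon length with Ints8 on the other strand, which was not called (31.8 CPM in mKO and 28.8 CPM in WT). The kinases had small positive changes that were not called: Cdk2 log2 0.34, SE 0.19, adjusted p = 0.185, and Cdk4 log2 0.15, SE 0.11, adjusted p = 0.301. Neither overlapped between groups, both passed with library totals, and Cdk4 shares 18.6% of its exon length with Tspan31.

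All 4 genes of the mitotic kinase and its cyclins rose (background 18.2% higher). Neither these 4 genes nor Foxm1 had every WT library past the filter on low counts. A difference was thus built into their selection. Cdk1 drives entry into mitosis when bound to cyclin B, and it had 2.49, 1.53 and 1.62 CPM in mKO, against 0.267, 0.460 and 0.280 CPM in WT (5.56-fold, log2 2.48, SE 0.37, adjusted p = 2.33e-04). Ccna2, cyclin A of S phase and G2, had 5.11, 4.27 and 4.16 CPM in mKO, against 0.301, 0.644 and 0.699 CPM in WT (8.10-fold, log2 3.02, SE 0.29, adjusted p = 8.03e-06). Ccnb1 rose 5.25-fold with 2.56, 1.66 and 1.43 CPM in mKO, against 0.367, 0.399 and 0.308 CPM in WT (log2 2.39, adjusted p = 2.29e-04), and Ccnb2 3.71-fold with 1.52, 0.853 and 1.05 CPM in mKO, against 0.301, 0.368 and 0.252 CPM in WT (log2 1.89, adjusted p = 0.00275). No mKO library overlapped a WT library for any of the 4, and mKO replicate 1 was the highest for each. Ccna2 shares 12.5% of its exon length with Exosc9. Foxm1, the transcription factor of late cell cycle genes, rose 3.10-fold from a low level, with 0.595, 0.606 and 0.621 CPM in mKO, against 0.200, 0.184 and 0.196 CPM in WT (log2 1.63, SE 0.44, adjusted p = 0.0115).

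Of the mitotic kinase and checkpoint genes Birc5, Aurkb, Bub1 and Bub1b rose, Plk1 was not called and Aurka fell. Only Aurka had every WT library past the filter on low counts. The others needed mKO libraries to pass it, so a difference was built into their selection. Birc5, which encodes survivin of the chromosomal passenger complex, had 1.08, 0.651 and 1.16 CPM in mKO, against 0.0334, 0.0613 and 0.0839 CPM in WT (15.1-fold, log2 3.91, SE 0.55, adjusted p = 1.53e-04), on 121 counts over the mKO libraries and 6 over the WT libraries. Aurkb, the kinase of the same complex, had 0.397, 0.718 and 0.729 CPM in mKO, against 0, 0.184 and 0.0839 CPM in WT (6.53-fold, log2 2.71, SE 0.69, adjusted p = 0.00796). The spindle checkpoint kinase gene Bub1 had 1.12, 1.03 and 0.783 CPM in mKO, against 0.234, 0.0920 and 0.0280 CPM in WT (8.43-fold, log2 3.08, SE 0.57, adjusted p = 0.00106), and its relative Bub1b, which encodes BubR1, 3.50, 2.60 and 2.11 CPM in mKO, against 1.57, 0.858 and 0.280 CPM in WT (3.08-fold, log2 1.62, adjusted p = 0.0109), a call lost without mKO replicate 1 (adjusted p = 0.0513; 7.23e-07 to 0.0513 over 15 alternatives). The WT libraries spread widely for Bub1b, and all 4 genes that rose stood above WT in every mKO library. Plk1, polo-like kinase, had 0.463, 0.449 and 0.351 CPM in mKO, against 0.0334, 0.307 and 0.0839 CPM in WT and was not called (log2 1.55, SE 0.64, adjusted p = 0.0744); it passed with limma-voom (adjusted p = 0.0390), with library totals (0.0165) and without WT replicate 2 (0.0133; 0.0133 to 0.233 over 14 alternatives).

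Aurka (chromosome 2, 172356190 to 172370535, minus strand), the kinase of centrosomes and spindle poles, went the other way. It had 2.09, 1.84 and 2.24 CPM in mKO, against 7.98, 6.25 and 7.89 CPM in WT, so that every mKO library lay below every WT library. The change was 3.58-fold lower (log2 -1.84, SE 0.19, adjusted p = 1.31e-05), and it remained lower with library totals (-1.38 on the log2 scale, adjusted p = 8.74e-05; 6.28e-16 to 1.58e-04 over 15 alternatives). Aurka was number 5 of the 52 members per kilobase in WT, at 2.91 CPM per kilobase, against 0.813 in mKO, and it shares no exon bases with another gene of the count tables. Tpx2, the spindle protein that activates this kinase, overlapped between groups, with 6.96, 5.55 and 5.35 CPM in mKO, against 7.18, 6.41 and 7.58 CPM in WT (log2 -0.24, SE 0.17, adjusted p = 0.270; 0.22 on the log2 scale with library totals).

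The anaphase-promoting complex members were not called. Cdc20, its activator, had 0.771, 0.898 and 0.378 CPM in mKO, against 0.1002, 0.368 and 0.336 CPM in WT (log2 1.33, SE 0.53, adjusted p = 0.0662), with the groups just apart, and passed without a filter on low counts (adjusted p = 0.0442), with library totals (0.0117) and without mKO replicate 3 (0.0469; 0.0117 to 0.211 over 14 alternatives). Ube2c, its ubiquitin-conjugating enzyme, had 2.25, 2.13 and 2.48 CPM in mKO, against 2.04, 2.85 and 2.60 CPM in WT, overlapping (log2 -0.13, SE 0.22, adjusted p = 0.685; 0.34 with library totals). Ube2c shares 592 of its 2600 exon bases with Tnnc2, the gene of fast troponin C on the other strand, which averaged 6081 CPM in mKO and 11796 CPM in WT. The named kit keeps no strand information, so reads of both genes in the shared bases cannot be told apart.

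Of 5 motor and kinetochore genes 4 rose, and of 5 spindle genes 4 rose (background 18.2% higher). The exceptions, Kif23 and Tpx2, were not called. Cenpf, a kinetochore and nuclear matrix protein, had 6.63, 6.20 and 5.91 CPM in mKO, against 0.635, 0.674 and 0.643 CPM in WT (9.56-fold, log2 3.26, SE 0.21, adjusted p = 4.67e-07), and Cenpe, the kinetochore motor, 3.13, 3.10 and 2.97 CPM in mKO, against 0.200, 0.552 and 0.280 CPM in WT (8.81-fold, log2 3.14, SE 0.34, adjusted p = 1.88e-05). Neither overlapped between groups, and their mKO replicates lay close together. Kif11, the motor that pushes spindle poles apart, rose 3.69-fold with 5.38, 3.68 and 4.24 CPM in mKO, against 1.17, 1.26 and 1.17 CPM in WT (log2 1.88, adjusted p = 4.78e-05). Kif20a, a motor of the late spindle, rose 2.47-fold (log2 1.31, adjusted p = 0.00474; 3.04 against 1.22 CPM, mKO against WT); 33.2% of its exon length is shared with Cdc23, which was lower in mKO (12.6 CPM in mKO and 19.9 CPM in WT). Kif23, the motor of centralspindlin, averaged 2.43 ± 0.258 CPM in mKO and 1.42 ± 0.590 CPM in WT (SD, n = 3 each) and was not called (log2 0.77, adjusted p = 0.0618), but passed in 5 of 15 alternatives, among them without WT replicate 3 (adjusted p = 0.0209; 0.00380 to 0.194 over all 15).

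Prc1, which bundles microtubules of the central spindle, had 5.93, 4.11 and 4.86 CPM in mKO, against 0.534, 0.889 and 0.895 CPM in WT (6.36-fold, log2 2.67, SE 0.26, adjusted p = 9.38e-06). It shares 11.1% of its exon length with Rccd1. Ckap2, a spindle protein, had 2.12, 2.02 and 1.86 CPM in mKO, against 0.134, 0.245 and 0.0839 CPM in WT (12.8-fold, log2 3.68, SE 0.40, adjusted p = 2.19e-05). Nusap1, which links microtubules to chromatin, rose 2.62-fold (1.92 against 0.729 CPM, log2 1.39, adjusted p = 0.00232). Gtse1, a microtubule-binding regulator of p53, had 51 counts over the mKO libraries and 3 over the WT libraries, a ratio per scaled library size of 13.2 (exact 95% counting interval 4.26 to 65.9, counting error only; adjusted p = 0.00483).

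Both cytokinesis genes rose (background 18.2% higher). Ect2, which switches on RhoA at the cleavage furrow, had 1.39, 2.22 and 2.13 CPM in mKO, against 0.601, 0.215 and 0.364 CPM in WT (4.87-fold, log2 2.29, SE 0.39, adjusted p = 6.26e-04). Anln, the furrow scaffold anillin, had 4.34, 3.77 and 3.73 CPM in mKO, against 1.57, 1.47 and 1.87 CPM in WT (2.40-fold, log2 1.26, SE 0.21, adjusted p = 5.10e-04).

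Mki67 and Top2a, both used as marks of dividing cells, changed by nearly the same factor. Mki67 (chromosome 7, 135689784 to 135716361, minus strand), which encodes the coat protein of mitotic chromosomes Ki-67, had 21.6, 20.5 and 20.4 CPM in mKO, against 2.77, 3.46 and 2.29 CPM in WT (7.34-fold, log2 2.87, SE 0.16, adjusted p = 1.89e-07). Top2a (chromosome 11, 98992943 to 99024189, minus strand), the topoisomerase that disentangles sister chromatids, had 14.7, 9.50 and 10.9 CPM in mKO, against 1.77, 1.44 and 1.68 CPM in WT (7.17-fold, log2 2.84, SE 0.21, adjusted p = 1.11e-06). The replicates of Mki67 lay close together in mKO, while Top2a was highest in mKO replicate 1. In both the groups stood far apart.

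**Figure D4:**
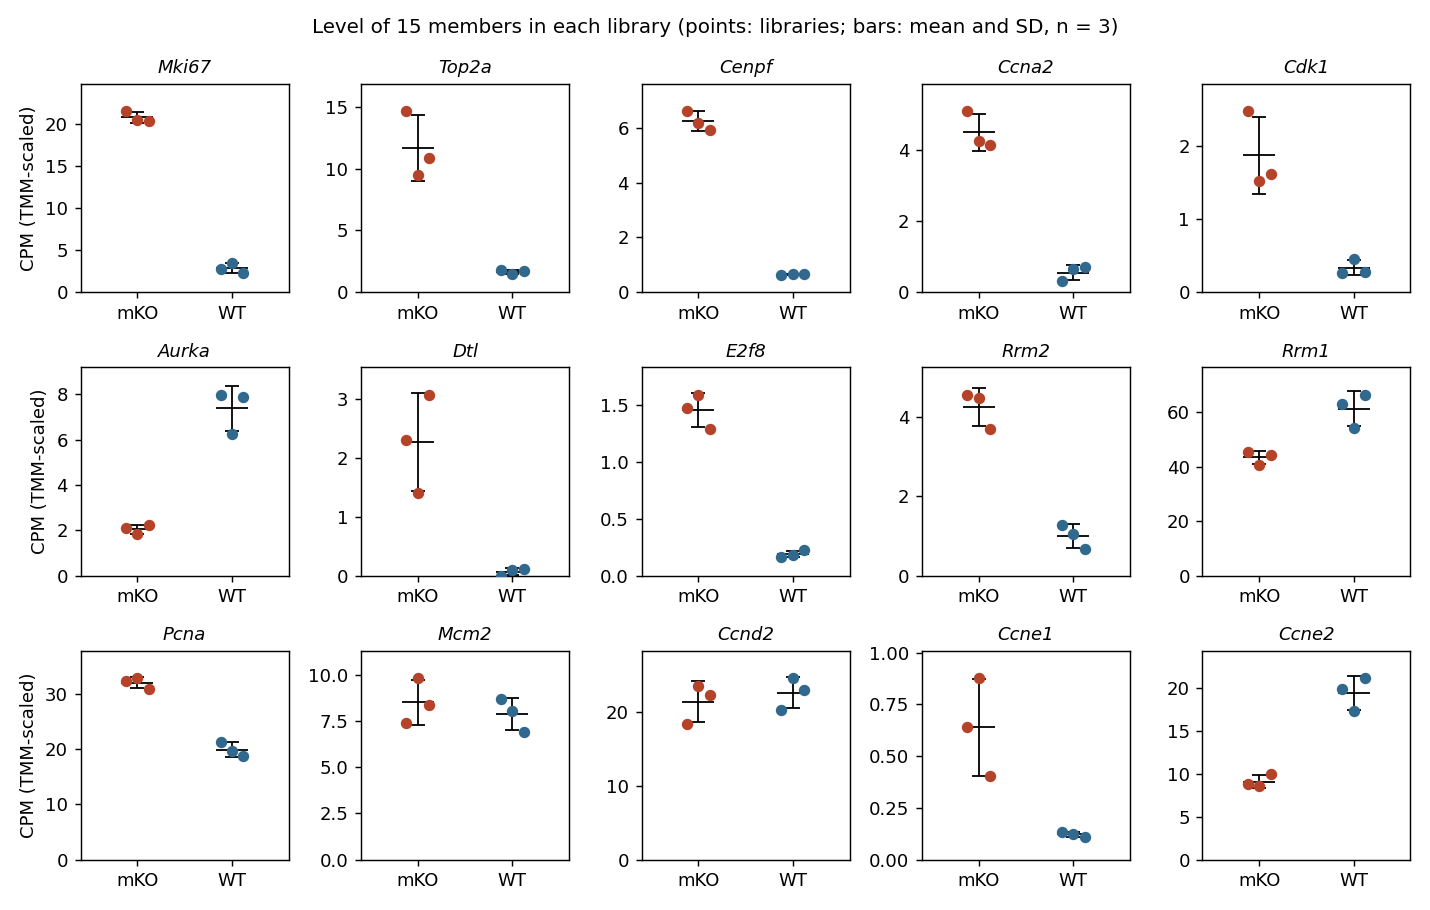
TMM-scaled CPM of 15 members in each library (points) with mean and SD of 3 libraries, mKO left and WT right. Mki67, Top2a, Cenpf, Ccna2, Cdk1, Dtl, E2f8, Rrm2, Pcna and Ccne1 lie above WT in every mKO library, Aurka, Rrm1 and Ccne2 lie below WT in every mKO library, and Mcm2 and Ccnd2 overlap.

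By level the members differed widely. The mean used for the split includes the mKO libraries, so a member that rose also stands higher in it. Split at the median of the mean level over all 6 libraries, 0.387 CPM per kilobase, the upper 26 members held 14 called higher and 4 called lower, with a median log2 change of 0.61. The lower 26 held 21 higher and 0 lower, with a median of 2.39, and include most of the members that entered the test through mKO. By class the medians in the upper 26 were 0.51 for 10 S-phase and 1.75 for 10 mitotic members. In the lower 26 they were 2.10 for 8 S-phase and 2.48 for 17 mitotic members. Across the 52 members Spearman's rho between the mean level per kilobase and the log2 change was -0.68, given as a description because the points share their libraries and the filter. The 4 members called lower, Aurka, Ccne2, Rrm1 and Tk1, all had every WT library past the filter. The filter makes this likely for any gene that is lower in mKO: it held for 3143 of all 3144 genes called lower. By position the members were scattered, with at most 8 on 1 chromosome (chromosome 2).

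Other genes of the same tasks were taken from lists that hold none of the 52 members. Of 55 other mitotic genes, 48 were tested, 40 were called higher and none lower, with a median log2 change of 1.88 (background 18.2% higher). Of these 48, 22 had passed the filter on low counts without all WT libraries reaching it. Among the other 26, 18 were called higher and 0 lower, with a median of 0.89 (background 16.5% higher). By lowest p the 48 were led by Aspm, a spindle pole protein (4.48 against 0.609 CPM, mKO against WT, log2 2.86, adjusted p = 6.44e-06), the motor gene Kif20b (3.50 against 0.841 CPM, log2 2.05, adjusted p = 3.69e-05), Ckap2l (1.70 against 0.160 CPM, log2 3.36, adjusted p = 8.68e-05) and Hmmr, which encodes a spindle-bound hyaluronan receptor (2.19 against 0.172 CPM, log2 3.64, adjusted p = 1.15e-04). Of 48 other replication genes, 46 were tested, 15 were higher and 6 lower, with a median of 0.25. The 43 with all WT libraries past the filter held 13 higher and 6 lower, with a median of 0.15. The deoxycytidine kinase gene Dck (3.50 against 1.43 CPM, log2 1.29, adjusted p = 5.80e-04), the helicase gene Mcm8 (5.59 against 2.59 CPM, log2 1.10, adjusted p = 0.00103) and Cdc45 of the active helicase (4.61 against 2.30 CPM, log2 1.00, adjusted p = 0.00113) rose, and Pola2 of DNA polymerase alpha fell (10.1 against 16.4 CPM, log2 -0.71, adjusted p = 8.38e-04).

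**Figure D5:**
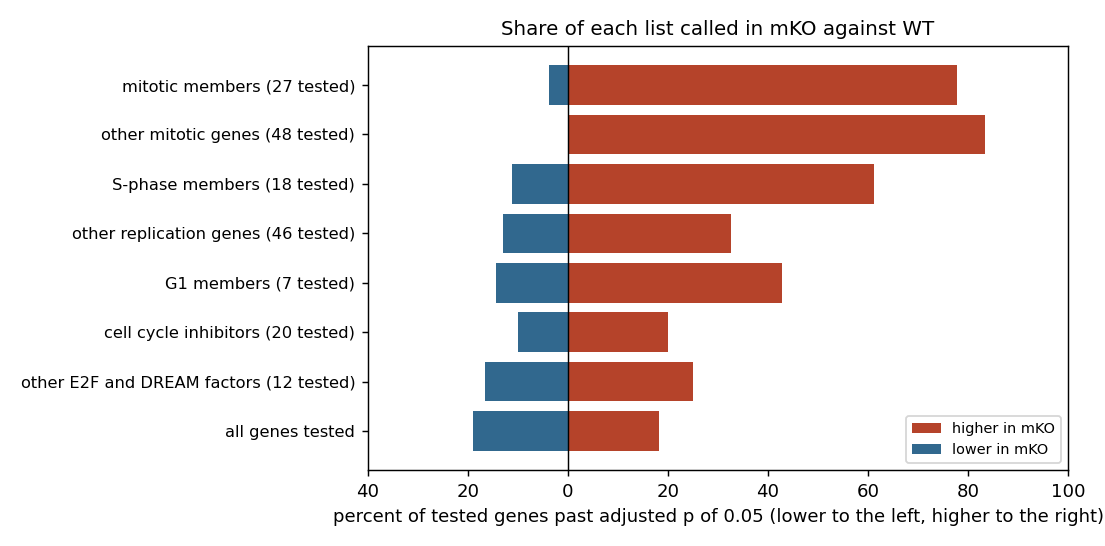
Percent of the tested genes of each list that passed an adjusted p of 0.05, higher in mKO to the right and lower to the left, with all genes tested at the bottom (18.2% higher and 18.9% lower). Both mitotic lists reach far to the right of the background and other replication genes less so, and the shares include genes that needed mKO libraries to pass the filter on low counts.

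Among 21 cell cycle inhibitors, 20 were tested, 4 rose and 2 fell, so the share that rose was close to the background. Cdkn1a, the kinase inhibitor p21, had 12.4, 11.02 and 10.6 CPM in mKO, against 2.84, 1.38 and 1.99 CPM in WT (5.50-fold, log2 2.46, adjusted p = 5.68e-06), and Gadd45a, a growth arrest gene, 67.1, 56.8 and 60.5 CPM in mKO, against 6.71, 11.4 and 7.86 CPM in WT (7.09-fold, log2 2.83, adjusted p = 3.22e-07). Cdkn2a, the locus of p16 and p19Arf, had 1.59, 0.561 and 1.43 CPM in mKO, against 0.134, 0 and 0 CPM in WT (log2 4.75, adjusted p = 6.80e-04), on 150 counts over the mKO libraries and 4 over the WT libraries. Btg1, an antiproliferative gene, rose as well (17.9 against 11.9 CPM, mKO against WT, log2 0.60, adjusted p = 0.00337). Cdkn2c, the kinase inhibitor p18, fell (9.03 against 12.5 CPM, log2 -0.47, adjusted p = 0.0304), and so did Ccng1, a p53 target (1609 against 2299 CPM, log2 -0.51, adjusted p = 0.00544). The summed level of the list, most of it Ccng1, was 1921 to 2073 CPM in mKO and 2359 to 2937 CPM in WT, and the median log2 change of the list was 0.17. Of 12 other E2F and DREAM factors, 3 rose and 2 fell, close to the background (18.2% higher and 18.9% lower). The median log2 change of this list was 0.06. E2f2, an activator E2F, had 14.9, 19.2 and 14.1 CPM in mKO, against 2.17, 1.32 and 1.20 CPM in WT (10.3-fold, log2 3.37, adjusted p = 5.40e-07), and E2f7, a repressor related to E2f8, averaged 0.432 ± 0.184 CPM in mKO and 0.0875 ± 0.0995 CPM in WT (SD, n = 3 each), with log2 2.21, adjusted p = 0.0377. E2f6, a repressor E2F that acts with polycomb proteins, fell with 28.1, 26.5 and 30.4 CPM in mKO, against 83.3, 104 and 99.9 CPM in WT (3.38-fold lower, log2 -1.76, adjusted p = 6.74e-07).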

How the data were processed

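Gene counts of 6 libraries (3 mKO, 3 WT) were analysed. The deposited values are raw counts per Ensembl gene in whole numbers, 1 table per library. Per the submitters' processing notes, reads went through Trimmomatic (version 0.36), the STAR aligner (2.5.2b) and the counter featureCounts, part of Subread (1.5.2), on GRCm38. The library kit was NEBNext Ultra RNA, per the labels' protocols. The sources used here do not give the strand setting, pair counting or multi-mapping. A table of Ensembl identifiers and symbols named 48970 of the 49315 genes, and positions and exon lengths are those of the count tables. Replicates differed beyond sampling noise (chi-square per degree of freedom 20.9 to 57.7).

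Genes were tested by quasi-likelihood F-test (edgeR 4.0.16, R 4.3.3) after TMM scaling, with its default expression filter by group (16650 genes kept), group as the only term and Benjamini-Hochberg adjustment over all genes kept at 0.05. Every adjusted p is from it unless another tool is named. CPM uses the TMM-scaled library size, and fold changes are mKO over WT. The test was checked on simulated data with 200 of 16650 genes raised, none of them at low counts. It found 94% of the genes raised 2-fold and 37% of those raised 1.5-fold. Of its 141 calls 10 were false. A member with a small change can thus be missed. Alternatives were DESeq2 1.42.0, limma-voom (limma 3.58.1), other scaling, filters and thresholds, a replicate block, each library left out, and, chosen after seeing the data, members with at least 10% shared exon length, or without every WT library past the filter, left out. Members and lists were chosen with earlier results of these data known, so no list was tested as a set. All members were named; of each other list, up to 4 genes by lowest p, besides Gse1, Gm2788, Tspan31, Exosc9, Rccd1, LTO1, Ints8, Tnnc2 and Cdc23, named because they share exons with members, Cd8a and Ly6g, which stood at 0, and Cdkn2c and Ccng1, named after their values were seen.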

Additional observations from a re-analysis of the deposited data

How the results depend on the processing

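Members called higher numbered 35 and lower 4 with DESeq2, RLE factors, a robust fit and the replicate block, the same as reported, 37 and 4 with limma-voom, upper quartile factors or no low-count filter, and 29 and 4 with a filter of CPM of at least 1 in 3 libraries, which leaves out low members. With library totals 9283 genes were called, 46 members were higher and 2 lower, and 6 G1 members were higher. At an adjusted p of 0.01 there were 3973 genes called, 31 members higher and 3 lower. With a fold of at least 2 there were 2359 genes, and among the members 7 S-phase, 21 mitotic and 1 G1 gene higher and 2 lower. Leaving out each library gave 4766 to 6255 genes, 32 to 36 members higher, 3 to 4 lower, 9 to 12 S-phase and 20 to 22 mitotic members higher, and 3 G1 members each time. The median log2 change of mitotic members minus that of S-phase members was 1.37, 1.16 to 1.51 with a library left out (lowest without mKO replicate 1, highest without WT replicate 2), and 1.17 with Ccne1, Ccne2, Cdk2 and Ccna2 counted as S-phase genes. With the members left out whose WT libraries did not all pass the filter on low counts, 16 members were higher and 4 lower, among them 6 S-phase, 8 mitotic and 2 G1 members higher, and the difference of medians was 0.79; by construction this leaves out members that were low in WT. Without the 9 members that share at least 10% of their exon length with another gene, 30 members were higher and 3 lower.

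Of the 39 called members, 35 were called in every fit with a library left out; Mcm3, Tyms, Tk1 and Bub1b were not. The sign turned for members that were not called: with library totals Ccnd2 was 0.38, Ube2c 0.34 and Tpx2 0.22 on the log2 scale, and with a library left out Ccnd2 ranged over -0.16 to 0.0201 (without WT replicate 1 and without mKO replicate 1). The causes were not tested, except that library totals shift all genes by 0.47. The labels name no pairing by replicate number. Deviations from the group mean correlated at 0.0185, -0.00202 and 0.0224 for equal numbers, and not every library correlated best with its own number. This shows no sign of pairing, but with so few libraries it cannot exclude pairing. The replicate block gave 5519 genes called and the same counts of members, 35 higher and 4 lower. Members with few WT counts, such as Dtl, Gtse1 and Birc5, have fold changes whose size depth limits.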
